A study of Mus musculus with 6 samples.

Results

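Synaptic vesicle and SNARE genes encode the proteins with which a nerve terminal docks, fuses and recycles its transmitter vesicles. They were taken by gene symbol alone, as the numbered members of the VAMP, syntaxin, SNAP, syntaxin binding protein, complexin, synaptotagmin, synapsin, SV2, Rab3 and synaptogyrin families. Of 66 genes found this way on 157 probe sets of the array, 63 were kept, those whose brightest probe set had a mean intensity of at least 40 over the 6 arrays, among 15103 of 18193 genes kept by the same rule. The mean intensities just outside this limit were 21.7 for Syngr4, 20.2 for Syt8 and 7.59 for Stx19, and just inside it were 44.8 for Rab3b and 51.0 for Syt3.

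Gene expression was measured in the ganglion cell layer of male C57BL/6J mice (age not given in the sources used here) in which the axons of 1 optic nerve had been crushed with forceps for 10 sec, the meningeal sheath staying intact. The 3 crushed eyes were taken after 6 hrs, and the 3 control eyes were the uninjured contralateral eyes, so that the controls came from animals that also had an injured nerve. About 6000 cells per eye were cut from frozen sections by laser capture, their RNA was amplified, and each eye was read on 1 Affymetrix Mu430 v2.0 array. The dissected layer holds retinal ganglion cells (RGCs), displaced amacrine cells, astrocytes, microglia, vascular endothelium and Muller cell processes, and in such bulk tissue fewer cells of a type and less RNA per cell cannot be told apart. Values are linear intensities in arbitrary units, and a log2 fold change is the mean over 3 pairs of the log2 value of the crushed eye minus that of the control eye with the same number.

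In a nerve terminal, a SNARE protein on the vesicle (a VAMP) zips together with SNAREs on the plasma membrane (a syntaxin and SNAP-25) and pulls both membranes into fusion. Synaptotagmins sense the Ca2+ that triggers the step, complexins hold and release the partly zipped complex, syntaxin binding proteins guide syntaxin into it, and synapsins, SV2, Rab3 and synaptogyrins serve the vesicle itself. Photoreceptor and bipolar cell terminals in the retina release transmitter continuously at ribbon synapses and use their own forms of syntaxin and complexin, while RGCs carry their vesicle proteins down the optic nerve to terminals in the brain.

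None of the 63 genes passed the test for a difference between crushed and control eyes. By limma, a moderated linear model fitted over all probe sets with the pairs as a block and intensities under 16 set to 16, 0 genes reached an unadjusted p under 0.05 as higher and 0 as lower, where of all 15103 genes 2.76% were higher and 2.27% lower, and 0 passed an adjusted p under 0.05, as for all genes (0%). The smallest adjusted p among them was 0.642, which was also the smallest over all 33169 probe sets tested after rounding, so that the adjusted threshold separated no gene from any other. The methods' paired t-test, run on the same intensities, called 1 gene higher (Syt5; 1.59%, against 2.56% of all genes) and 2 lower (Rab3d and Sv2b; 3.17%, against 2.33%) before adjustment. On its brightest probe set, none met the study's limits of a fold over 1.2 and an intensity difference over 80 together with an unadjusted p under 0.05 from limma.

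The log2 fold changes lay close to 0. They ranged from -0.61 for Snap29 to 0.45 for Vamp5, with 28 above 0 (44.4%, against 45.7% of all genes) and 35 below. The median was -0.02, against a median of -0.02 over all genes. With quantile normalization 33 were above 0, where 45.2% of all genes were. With a common median for every array 19 were, where 36.8% of all genes were and the median of all genes was -0.06. The middle range of the 63, between the lower and upper quartile, ran from -0.10 to 0.08, and that of all genes from -0.16 to 0.12. In 9 genes the crushed eye was the higher in all 3 pairs (14.3%, against 15.2% of all genes), and in 7 it was the lower in all 3 (11.1%, against 15%).

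**Figure D1:**
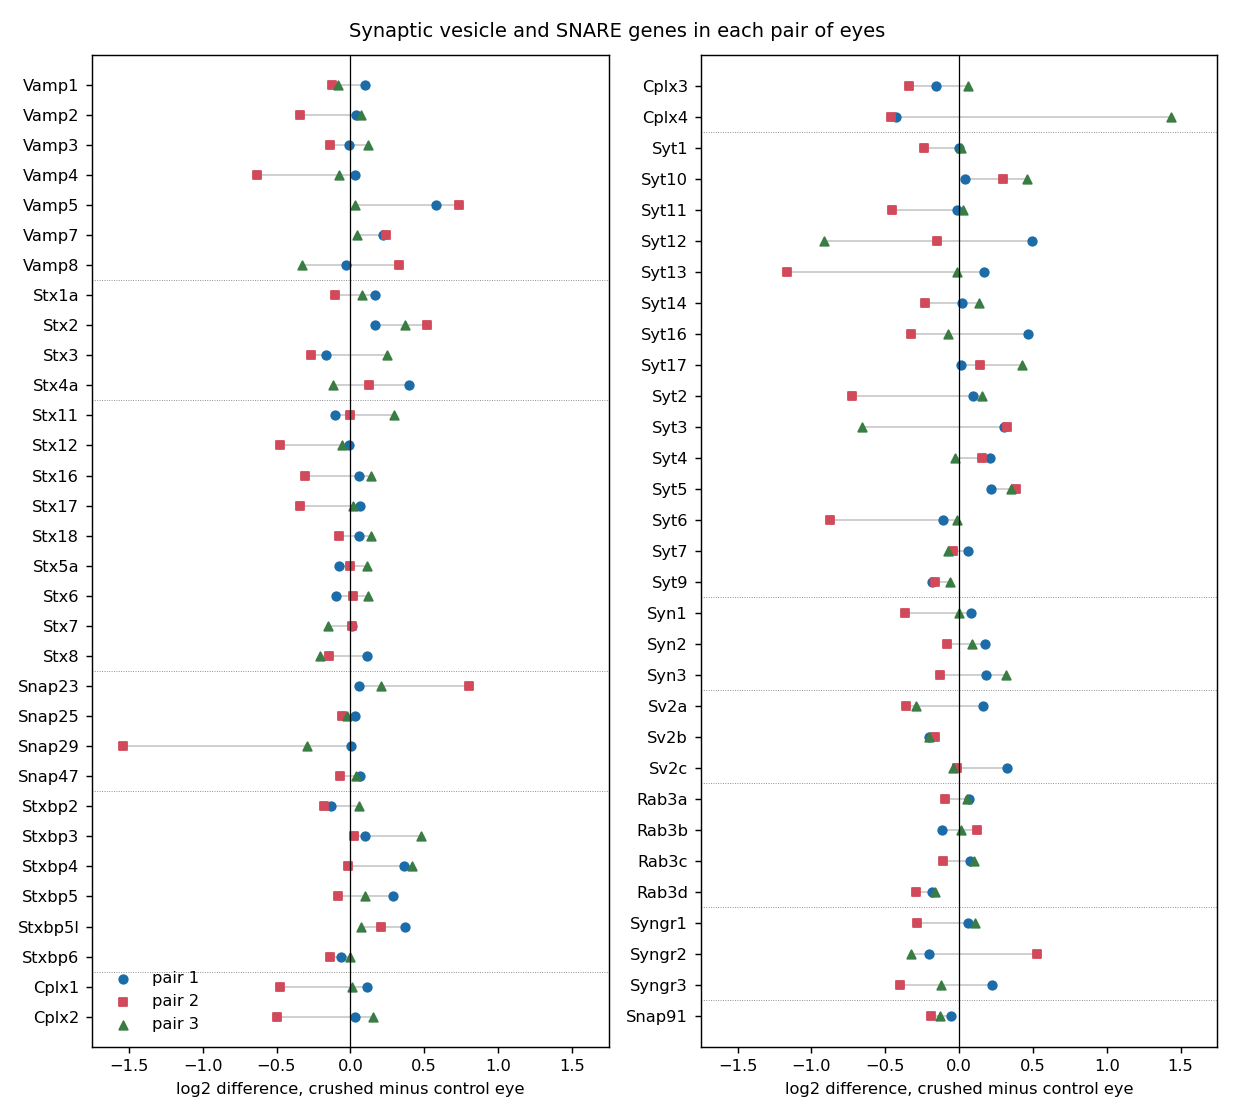
Log2 difference in intensity, crushed minus control eye, for each of the 63 genes, grouped by role with dotted lines between groups; each symbol is 1 pair of eyes and the grey line spans the 3 pairs. Most symbols lie within 0.5 of 0, and the widest spans are those of Cplx4, Snap29, Syt12 and Syt13.

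In the Ca2+ sensors and SNAREs of fast release described first, the control and crushed eyes overlapped. Syt1, the main Ca2+ sensor for fast release, had intensities of 10197, 10624 and 9178 in control eyes 1, 2 and 3 and of 10205, 8999 and 9283 in crushed eyes 1, 2 and 3. The groups overlapped, with the lowest value in crushed eye 2 and the highest in control eye 2, and the log2 fold change was -0.07 with a 95% interval of -0.43 to 0.29. Snap25, the plasma membrane SNARE of most neurons, read 11062, 10723 and 10894 in control eyes and 11317, 10310.1 and 10707 in crushed eyes. On this brightest probe set its highest value was only 1.10 times its lowest, and its log2 fold change was -0.02 (95% interval -0.35 to 0.32). The other probe set of Snap25, with a mean of 7512, read 6626, 5719 and 8579 in control eyes and 7684, 7289 and 9176 in crushed eyes. There the groups overlapped, each crushed eye was above its own control, the spread was 1.60 times and the log2 fold change was 0.22 (95% interval -0.13 to 0.57).

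Vamp2, the vesicle SNARE that pairs with Snap25, read 7151, 7375 and 7020.3 in control eyes and 7349, 5815 and 7366 in crushed eyes. Crushed eye 2 lay below the other 5 eyes, which stood together, and the log2 fold change was -0.08 (95% interval -0.47 to 0.32). Vamp1, its close relative, read 6040.3, 5814 and 5785 in control eyes and 6481, 5343 and 5467 in crushed eyes, where crushed eye 1 was the highest and crushed eye 2 the lowest of the 6. Stx1a, the syntaxin of conventional synapses, read 2391, 2454 and 2797 in control eyes and 2689.5, 2284 and 2957 in crushed eyes. Values overlapped here too, and the log2 fold changes were -0.03 for Vamp1 (95% interval -0.39 to 0.32) and 0.05 for Stx1a (95% interval -0.31 to 0.41). Syt2, a Ca2+ sensor of fast-firing synapses, read 399, 384 and 336 in control eyes and 426, 232 and 373 in crushed eyes. Crushed eye 2 lay far below the other 5 eyes, and the log2 fold change was -0.16 (95% interval -0.72 to 0.40).

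**Figure D2:**
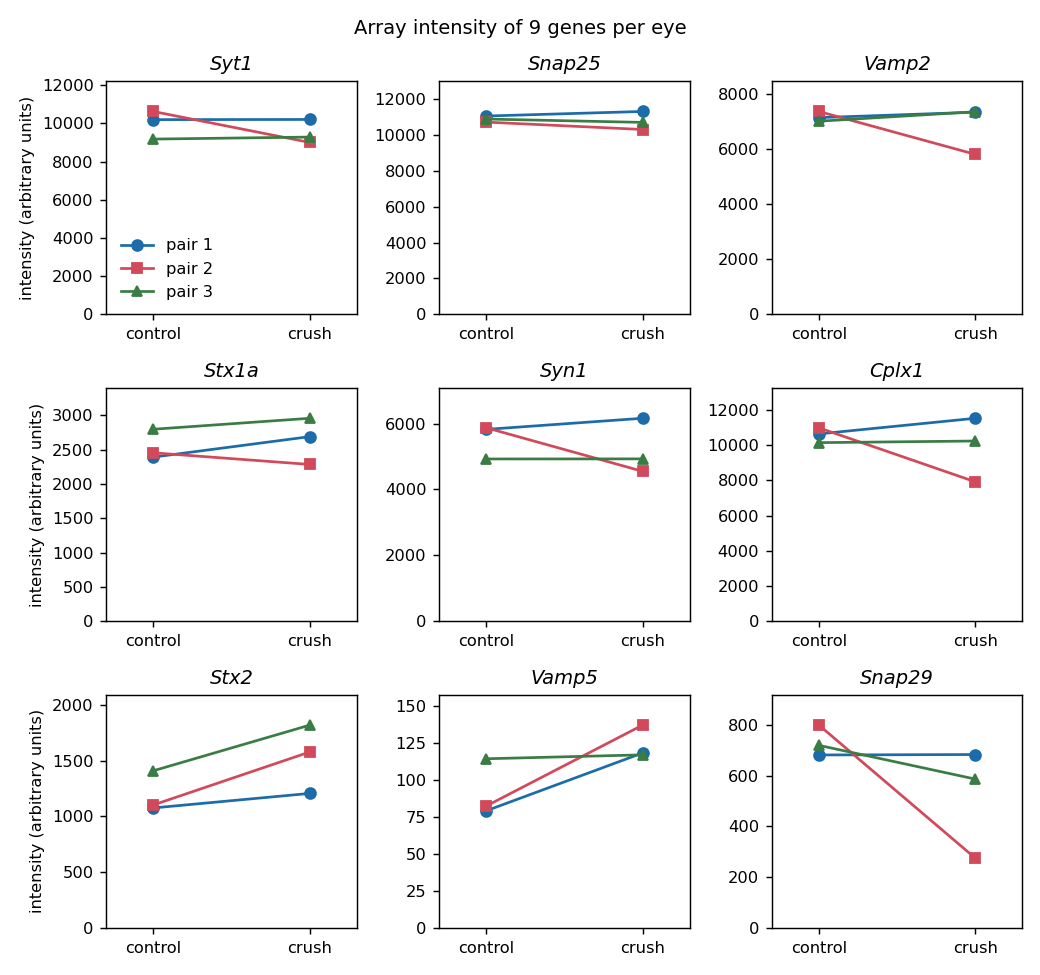
Intensity of 9 of the genes in each eye, on linear axes that start at 0; a line joins the control eye and the crushed eye of a pair. The lines for Syt1, Snap25, Stx1a and Syn1 are close to flat or differ in direction between pairs, those for Stx2 and Vamp5 point up in 3 of 3 pairs, and that for Snap29 drops in pair 2 from 799 to 274.

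The complexins Cplx1 and Cplx2 and the GTPase Rab3a, which act on docked vesicles, also overlapped between the groups. Cplx1, a complexin of conventional synapses, read 10644, 10992 and 10147 in control eyes and 11534, 7917 and 10240.3 in crushed eyes, and Cplx2, a form of many central synapses, read 3024, 3059 and 2672 in control and 3093, 2172 and 2977 in crushed eyes. In each gene crushed eye 2 was the lowest of the 6 and pairs 1 and 3 were slightly higher after crush, and the log2 fold changes were -0.11 (95% interval -0.55 to 0.33) and -0.10 (95% interval -0.56 to 0.36). Rab3a, the small GTPase that marks docked vesicles, read 11156, 11717 and 11280.5 in control eyes and 11713, 10991 and 11693 in crushed eyes. These 6 values, from the brightest probe set, had the narrowest spread of the 63 genes, 1.07 times from lowest to highest. Their log2 fold change was 0.01 (95% interval -0.34 to 0.36). The other probe set of Rab3a had a mean of 898, a spread of 1.33 times and a log2 fold change of -0.14 (95% interval -0.54 to 0.26).

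Syn1, a synapsin that tethers the reserve pool of vesicles, read 5824, 5874 and 4925 in control eyes and 6162, 4549.6 and 4928 in crushed eyes. Syn2, which shares that role, read 2580.3, 2726 and 2689 in control eyes and 2911, 2574 and 2864 in crushed eyes. The eyes of both groups overlapped in each, with log2 fold changes of -0.10 for Syn1 (95% interval -0.49 to 0.30) and 0.06 for Syn2 (95% interval -0.30 to 0.42). Sv2a, a vesicle glycoprotein and the target of the antiepileptic levetiracetam, read 2722, 2850.2 and 2765 in control eyes and 3045, 2219 and 2255 in crushed eyes, so that crushed eye 1 was the highest of the 6 and crushed eyes 2 and 3 were the lowest. Its log2 fold change was -0.16 (95% interval -0.59 to 0.26). Sv2c, its relative, was near the intensity limit at 47.4, 64.2 and 66.5 in control eyes and 59.4, 63.6 and 64.7 in crushed eyes, with all but control eye 1 close together. Its log2 fold change was 0.09 (95% interval -0.29 to 0.47).

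The synaptogyrins are abundant proteins of the vesicle membrane. Syngr1 read 5816, 6198 and 5580.0 in control eyes and 6073, 5085 and 6018 in crushed eyes. Syngr3 read 1040.3, 978 and 1061 in control eyes and 1216, 743 and 974 in crushed eyes. In both genes crushed eye 2 was the lowest of the 6 eyes and the groups overlapped, and the log2 fold changes were -0.04 for Syngr1 (95% interval -0.43 to 0.35) and -0.10 for Syngr3 (95% interval -0.54 to 0.34).

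The regulatory sequences of these genes are shown for Syn1 and Syt1, a synapsin and a Ca2+ sensor with different promoter elements. RefSeq promoters on the mouse build GRCm38.p6 were matched by Entrez gene identifier for 50 of the 63 genes, with 64 start sites, and the 250 bases before each start were searched on both strands. Below, capitals mark the matches, TTCAGCACC (the left part of the site of the repressor REST, which keeps neuronal genes off in other cells) and TGACGTCA (the cyclic AMP response element) in Syn1, and CCAAT, its reverse complement ATTGG and GGGCGG (the GC box) in Syt1.
Syn1, chrX:20920919-20921168, minus strand: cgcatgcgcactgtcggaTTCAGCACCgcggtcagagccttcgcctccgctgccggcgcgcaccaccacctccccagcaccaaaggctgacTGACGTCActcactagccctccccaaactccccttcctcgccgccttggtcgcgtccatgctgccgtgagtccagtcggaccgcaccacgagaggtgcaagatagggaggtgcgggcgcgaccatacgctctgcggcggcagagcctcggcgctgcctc
Syt1, chr10:109010976-109011225, minus strand: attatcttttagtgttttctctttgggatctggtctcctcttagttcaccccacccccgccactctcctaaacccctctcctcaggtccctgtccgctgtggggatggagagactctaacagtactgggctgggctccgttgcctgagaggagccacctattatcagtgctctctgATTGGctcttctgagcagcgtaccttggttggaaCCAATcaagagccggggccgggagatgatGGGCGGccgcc

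In Syn1 the REST letters began 232 bases and the cyclic AMP response element 159 bases before the start. In Syt1 the letters for CCAAT began 74 and 40 bases and the GC box 11 bases before it. RefSeq gives Syt1 a second start site, whose window at chr10:109009112-109009361 held none of the letters searched and had a G and C share of 42.8%, against 56.4% in the window shown. Among the 50 genes, Syn1 alone held the REST letters (2%, against 0.382% of the 12033 genes with a promoter among all genes kept by the intensity rule), and Syn1 and Stxbp3 held the cyclic AMP response element (4%, against 2.69%). GGGCGG stood in 37 of 50 (74%, against 58.0% of the kept genes with a promoter), CCAAT in 18 (36%, against 39.6%) and TATAAA in 4 (8%, against 9.39%). By start site GGGCGG stood in 62.5% of their 64 promoters, against 32.7% of all 32851 promoters of that length. That background also holds promoters of genes that were not kept, so these shares are not like for like. The share by start site among kept genes is not given. The median share of G and C was 62% in these windows and 58.8% in those of all kept genes. These are matches of letters in a window and not measured binding.

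The forms known from ribbon synapses were read in the dissected layer as well. Stx3, the syntaxin of ribbon terminals, read 7653, 6874 and 5993 in control eyes and 6812, 5728 and 7126 in crushed eyes, with log2 differences of -0.17, -0.26 and 0.25 in pairs 1, 2 and 3. Cplx3, a complexin of photoreceptor, bipolar and some amacrine terminals, read 7296, 7863 and 6842 in control eyes and 6537, 6228 and 7125 in crushed eyes, with log2 differences of -0.16, -0.34 and 0.06. The groups overlapped in each, and the log2 fold changes were -0.06 (95% interval -0.48 to 0.36) and -0.15 (95% interval -0.53 to 0.23). Sv2b, the SV2 form found in photoreceptor and bipolar terminals, read 2208, 2042 and 1877 in control eyes and 1919.7, 1826 and 1629 in crushed eyes. On this brightest probe set each crushed eye lay below its own control by a near equal step, -0.20, -0.16 and -0.20 on the log2 scale in pairs 1, 2 and 3, although crushed eye 1 was above control eye 3. The log2 fold change of -0.19 had a 95% interval of -0.53 to 0.15 and an adjusted p of 0.703 from limma, and an unadjusted p under 0.05 was reached with a floor of 64, without the intensity filter and with the methods' t-test. The other probe set of Sv2b, with a mean of 1428, did not share this, with log2 differences of -0.23, 0.02 and 0.46. Its log2 fold change was 0.08 (95% interval -0.38 to 0.54), and the mean of the gene's probe sets gave -0.05.

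Cplx4, a complexin of photoreceptor terminals, varied most of the 63 genes, with its highest value 4.22 times its lowest. It read 2927, 1570.1 and 693 in control eyes and 2176, 1139 and 1871 in crushed eyes, and the control eyes alone spanned that whole range. The log2 differences were -0.43, -0.46 and 1.43 in pairs 1, 2 and 3, so that pair 3 went against the other pairs, and the log2 fold change of 0.18 had a 95% interval of -0.85 to 1.22. Without pair 3 it was -0.45, and the ratio of the mean intensities, 1730.1 ± 1125 in control and 1728 ± 533 in crushed eyes (SD, n = 3 eyes each), was close to 1.

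Rod markers differed between the eyes too. Of 14 listed markers of rods, the photoreceptors of dim light, 12 were above the intensity limit, and their summed intensity ran from 43813 to 75566 in control eyes and from 61709 to 70624 in crushed eyes. Control eye 1 held the highest and control eye 3 the lowest sum, as for Cplx4, and for the rod markers pairs 1, 2 and 3 gave median log2 differences of -0.21, 0.22 and 0.74. Cone markers, 9 of 10 measured, had medians of -0.26, -0.03 and 0.89. The part of photoreceptor RNA in the values of Cplx4 and the other ribbon forms was not tested.

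**Figure D3:**
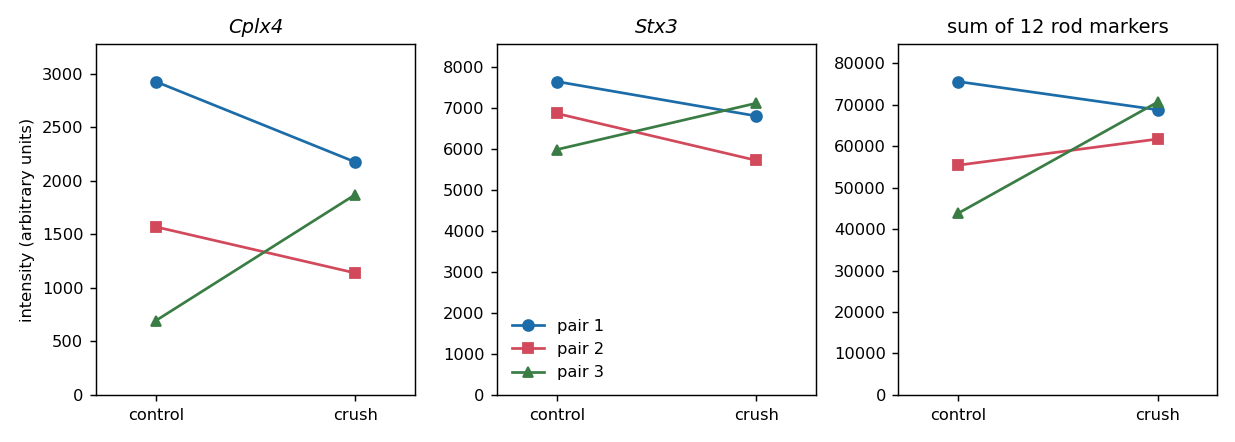
Intensity of Cplx4, of Stx3 and of the summed 12 rod markers in each eye, on linear axes that start at 0; lines join the eyes of a pair. Control eye 3 has the lowest control value in all 3 panels, and the line of pair 3 goes up in each.

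The 3 largest log2 fold changes belonged to SNAREs of more general use. Vamp5, a VAMP of muscle and other non-neuronal cells, read 79.1, 82.3 and 114 in control eyes and 118, 137 and 117 in crushed eyes. All 3 crushed eyes were above all 3 control eyes, by little in pair 3 where the log2 difference was 0.03, and the log2 fold change was 0.45 (95% interval -0.02 to 0.92, unadjusted p = 0.059, adjusted p = 0.642 from limma). Snap23, the widely expressed relative of Snap25, read 172, 134 and 164 in control eyes and 179, 235 and 189.7 in crushed eyes. Its groups did not overlap either, pair 2 gave most of the difference (0.81, against 0.06 and 0.21 in pairs 1 and 3), and the log2 fold change was 0.36 (95% interval -0.13 to 0.85, adjusted p = 0.654 from limma). Stx2, a plasma membrane syntaxin of many tissues, read 1076, 1103 and 1409 in control eyes and 1206, 1578 and 1819 in crushed eyes. Each crushed eye was above its own control, with overlap between crushed eye 1 and control eye 3, and the log2 fold change was 0.35 (95% interval -0.02 to 0.72, unadjusted p = 0.060, adjusted p = 0.642 from limma).

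The 3 lowest values rested on crushed eye 2. Snap29, a SNARE of intracellular membrane traffic and autophagy, read 681, 799 and 719 in control eyes and 683, 274 and 586 in crushed eyes. Crushed eye 2 was far below the other 5 eyes while crushed eye 1 stood level with its control, and the log2 fold change was -0.61 (95% interval -1.42 to 0.20, adjusted p = 0.650 from limma). Its other tested probe set read 85.1, 73.1 and 107 in control eyes and 95.4, 107 and 80.7 in crushed eyes, with crushed eye 2 close to the highest value there. Syt13, an atypical synaptotagmin that does not bind Ca2+, read 714, 795 and 863 in control eyes and 803, 355 and 853 in crushed eyes, and Syt6 read 72.0, 67.2 and 58.5 in control and 66.6, 36.6 and 58.1 in crushed eyes. In both crushed eye 2 was the lowest by a wide margin, and the log2 fold changes were -0.34 (95% interval -1.07 to 0.40) and -0.33 (95% interval -0.88 to 0.21). Without pair 2 they were -0.15 for Snap29, 0.08 for Syt13 and -0.06 for Syt6.

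In 4 genes the 3 crushed eyes lay above the 3 control eyes (6.35%, against 5.69% of all genes) and in 2 they lay below (3.17%, against 5.32%). Vamp5 and Snap23 are described above, and the others above were Syt5, with 58.0, 56.5 and 53.2 in control and 67.3, 73.7 and 67.9 in crushed eyes, and Stxbp5l, the tomosyn-2 that competes with VAMPs for syntaxin, with 1665, 1857 and 2074 in control and 2153, 2146 and 2178 in crushed eyes. Syt5, a Ca2+ sensor of vesicles, had a log2 fold change of 0.32 (95% interval -0.03 to 0.66, unadjusted p = 0.065, adjusted p = 0.642 from limma), and Stxbp5l had 0.22 (95% interval -0.15 to 0.58). Those below were Rab3d, the Rab3 form of secretory cells, with 483, 476 and 503 in control and 425, 389.7 and 448 in crushed eyes, and Stxbp6, amisyn, with 4490.1, 4789 and 4479 in control and 4294, 4350.2 and 4475 in crushed eyes. Their log2 fold changes were -0.21 (95% interval -0.55 to 0.13) and -0.07 (95% interval -0.41 to 0.27), and for Stxbp6 the gap between the groups was only 4475 against 4479. Under quantile normalization and with a common median for every array, Snap23 and Syt5 were still above and Rab3d still below without overlap, while Vamp5, Stxbp5l and Stxbp6 overlapped and Snap29 lay below in all 3 crushed eyes. Rab3a and Syn2 also stood above under quantile normalization, and Cplx3 and Sv2b also stood below with the common median. The 5.69% and 5.32% of all genes hold for the deposited scaling, and no share of all genes is given under these other scalings.

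By role, no family had all of its members on the same side of 0. Of the 7 VAMPs 2 were higher on average and 5 lower, from -0.23 for Vamp4, a VAMP of the trans-Golgi network, to the 0.45 of Vamp5. Of the 4 plasma membrane syntaxins 3 were higher and 1 lower, and of the 9 syntaxins of endosomes, Golgi and other compartments 4 were higher and 5 lower, all within -0.18 and 0.06. The 15 synaptotagmins split into 5 higher and 10 lower, from the -0.34 of Syt13 to the 0.32 of Syt5. The 6 syntaxin binding proteins ran from -0.08 for Stxbp2 to 0.26 for Stxbp4, with 4 higher. The 4 Rab3 genes lay within -0.21 and 0.02, the 3 synapsins within -0.10 and 0.12, the 3 SV2 genes within -0.19 and 0.09, the 4 complexins within -0.15 and 0.18 and the 3 synaptogyrins within -0.10 and 0.00. Snap91, which encodes the clathrin adaptor AP180 and matched by symbol only, had a log2 fold change of -0.12 on its brightest probe set and was lower in 3 of 3 pairs.

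The direction of the 63 genes differed between pairs. In pair 1, 44 of them were higher in the crushed eye (69.8%, against 53.1% of all genes), in pair 2, 17 were (27.0%, against 38.9%), and in pair 3, 38 were (60.3%, against 57.2%). Their median log2 differences were 0.06, -0.13 and 0.03 in pairs 1, 2 and 3, and those of all genes 0.01, -0.10 and 0.04. Pairs 1 and 2 had the same direction for 28 of the 63 genes, pairs 1 and 3 for 37 and pairs 2 and 3 for 30 (44.4%, 58.7% and 47.6%, against 54.4%, 51.2% and 54.8% of all genes).

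The array of crushed eye 2 stood apart. It gave the lowest of the 6 values for 29 of the 63 genes (46.0%), and for 36.5% of all genes, while each other array did so for 4 to 10 of the 63. It also had the lowest median intensity over all probe sets, 131.2, where the other arrays ranged from 141.1 to 153.9. Without pair 2, 43 of the 63 genes were higher on average and the median log2 fold change was 0.05, against 57.7% of all genes higher and a median of 0.03. With the array of crushed eye 2 left out and no pairing, 40 were higher and the median was 0.04, against 55.9% of all genes higher and a median of 0.02. Neither setting brought any of the 63 past an unadjusted p under 0.05.

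Markers of the cell types in and around the layer moved with the pairs or with the groups. Markers of RGCs, 19 of 20 measured, had a summed intensity of 70933 to 72896 in control eyes and 64206 to 80231 in crushed eyes. All 19 were higher in the crushed eye in pair 1, 5 in pair 2 and 6 in pair 3, with median log2 differences of 0.22, -0.18 and -0.11. Thy1, a surface protein of RGCs, read 8602, 8917 and 9148 in control eyes and 10014, 8488 and 9021 in crushed eyes, far above the floor. Amacrine cell markers, 16 of 17 measured with sums of 50987 to 57869 in control and 44832 to 52804 in crushed eyes, had medians of -0.06, -0.36 and 0.03. Bipolar cell markers, 9 of 12 measured with sums of 17807 to 20893 in control and 15564 to 17002 in crushed eyes, had medians of -0.31, -0.45 and -0.15, and those of Muller cells, 15 of 15 measured with sums of 66177 to 73095 and 63556 to 65054, had -0.27, -0.10 and -0.13. In both lists the sums of the crushed eyes lay below those of all control eyes. Of the bipolar cell markers 9 of 9 were lower on average, 3 of them with an unadjusted limma p under 0.05, and of the Muller cell markers 13 of 15 were lower, 1 of them at that level. Of the 9 microglia markers measured, 6 were higher on average and 1 was lower at that level, with medians of 0.01, 0.48 and -0.20 in pairs 1, 2 and 3. Pigment epithelium markers, 7 of 8 measured, had medians of 0.08, -0.12 and -0.22, with 2 higher and 1 lower at that level. Of the rod markers 12 of 12 were higher on average, 0 of them at that level, and of the cone markers 6 of 9 were higher, 1 of them at that level. Of all genes 45.7% were higher on average, and 2.27% were lower and 2.76% higher at that level. Astrocyte markers, 4 of 5 measured with sums of 13037 to 13750 in control and 12231 to 15073 in crushed eyes, had medians of 0.28, 0.23 and 0.31, and 3 of the 4 were higher in every pair. Gfap, the filament protein of astrocytes, read 379, 326 and 503 in control eyes and 729.6, 607 and 821 in crushed eyes, without overlap, and it and Pdgfra had an unadjusted p under 0.05 from limma. The sums overlapped between the groups for markers of microglia (9 of 10 measured, 3719 to 5240 in control and 3832 to 4720 in crushed eyes) and of endothelial cells (6 of 8 measured, 7785 to 8591 and 7572 to 8840). Of the measured markers in these lists, 0 lay under the floor on any array. The part of these cell types in the values of the synaptic genes was not tested.

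**Figure D4:**
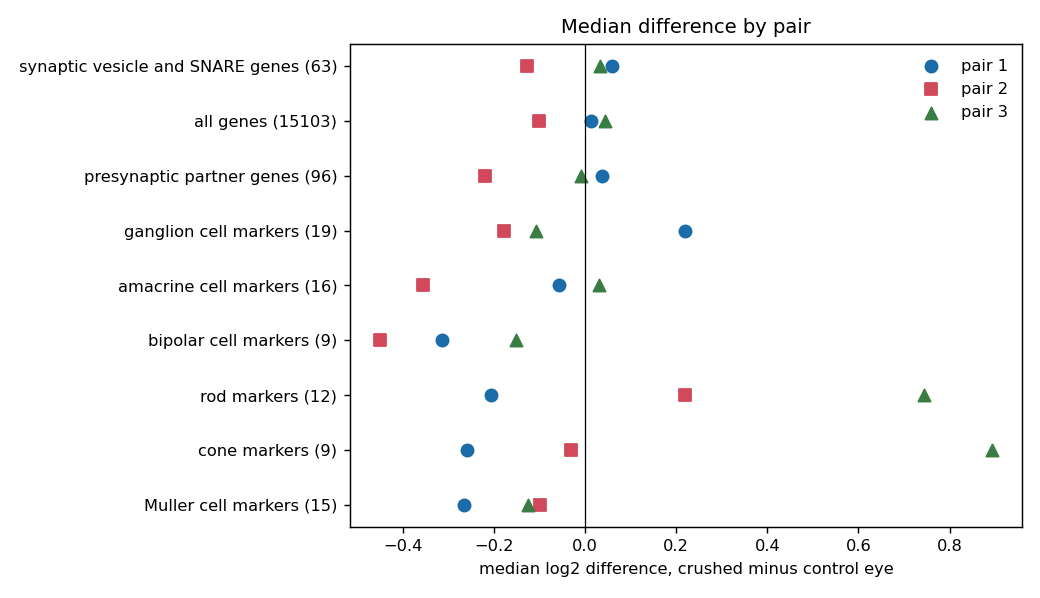
Median log2 difference (crushed minus control eye) within each pair for the 63 genes, all 15103 genes, the presynaptic partner genes and 6 lists of cell type markers; the number of genes is in parentheses. The 63 genes stay near all genes in each pair, with pair 2 lowest at -0.13, while rod and cone markers reach 0.74 and 0.89 in pair 3.

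A gene can be read by several probe sets on this array, and for 39 of the 63 genes more than 1 was tested. All pointed in the same direction in 13 of these genes and in both directions in 26. Among 72 dimmer probe sets of the 39 genes, 6 were higher in crushed eyes at an unadjusted p under 0.05 (8.33%, against 5.5% of all 11672 dimmer probe sets) and 0 were lower (2.68% of all), and all 6 had an adjusted p of 0.642 from limma. Those of Cplx2, Snap91, Stxbp5l and Syt1, 4 of the 6, met the study's limits of fold and intensity difference with this limma p. The 6 had been picked by p, and the share of all dimmer probe sets that met these limits is not given. With the methods' t-test, of these 4 only that of Stxbp5l kept an unadjusted p under 0.05.

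These 6 belonged to Snap91, Stxbp5l, Syt1, Stx3, Cplx2 and Syn2, 1 each, and they are named because of their p. The dimmer probe set of Snap91 read 108, 157 and 204 in control eyes and 160.0, 275 and 421 in crushed eyes, with a log2 fold change of 0.81 (95% interval 0.41 to 1.21). Each crushed eye was above its own control while values overlapped between pairs, and the brightest probe set of the gene read 6877, 7121 and 6354 in control eyes and 6624, 6233 and 5823 in crushed eyes. The dimmer probe set of Stxbp5l read 655, 475 and 629 in control eyes and 957, 976 and 1004 in crushed eyes. All crushed eyes were above all control eyes, with a log2 fold change of 0.75 (95% interval 0.35 to 1.16), and its other probe sets gave 0.22 and 0.17. That of Syt1 read 630.3, 484 and 769 in control eyes and 789, 748 and 1331 in crushed eyes. Control eye 3 overlapped the lowest crushed eye there, the log2 fold change was 0.58 (95% interval 0.18 to 0.98), and the 3 other probe sets of Syt1 gave -0.04 to -0.09.

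That of Cplx2 read 1775, 1599 and 2129.9 in control eyes and 2236, 2219 and 3439 in crushed eyes, without overlap, and had a log2 fold change of 0.50 (95% interval 0.13 to 0.87). That of Syn2 read 51.3, 66.6 and 69.9 in control and 78.5, 95.2 and 90.1 in crushed eyes, also without overlap, and had a log2 fold change of 0.50 (95% interval 0.14 to 0.85). That of Stx3 read 34.9, 32.8 and 44.9 in control and 42.8, 55.4 and 67.4 in crushed eyes, with overlap and a log2 fold change of 0.55 (95% interval 0.15 to 0.94). The last of these is near the intensity limit, and with a floor of 64 its log2 fold change was 0.03. Without the pairing 3 of the 6 kept an unadjusted p under 0.05, those of Stxbp5l, Syn2 and Stx3, and each of the 6 was higher in 3 of 3 pairs. With 1 pair left out, the probe sets of Snap91 and Stxbp5l stayed under 0.05 whichever pair it was, with log2 fold changes of 0.69 to 0.93 and 0.61 to 0.86. The others lost it, Syn2 without pair 1 (0.44), Stx3 without pair 2 (0.44) or pair 3 (0.53), and Cplx2 and Syt1 without pair 3 (0.40 and 0.48). With the methods' t-test the probe sets of Snap91, Syt1, Cplx2 and Stx3 lost it and those of Syn2 and Stxbp5l kept it, and with a trend and robust prior those of Stx3 and Syn2 lost it.

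**Figure D5:**
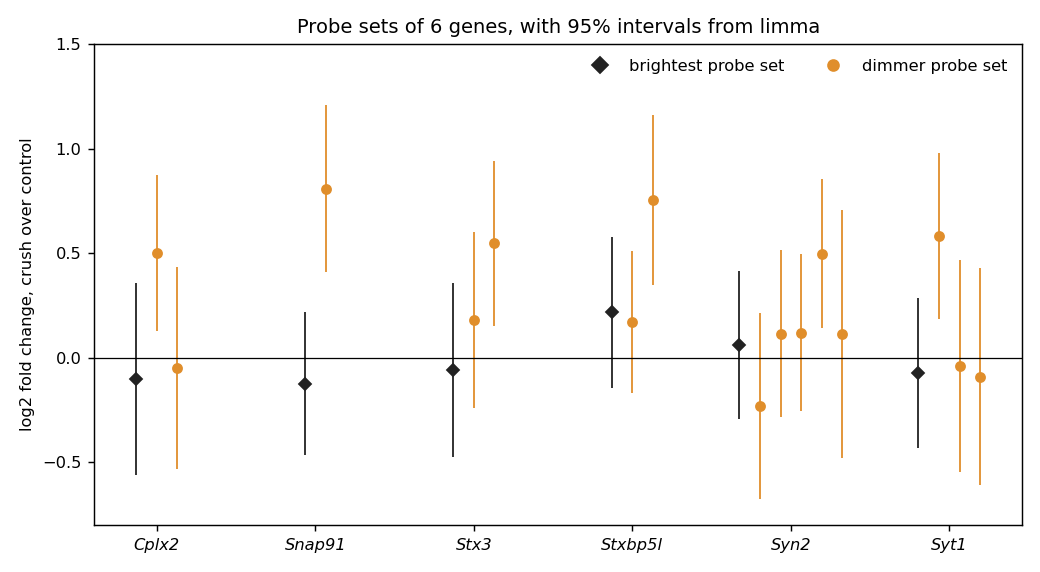
Log2 fold change of every tested probe set of the 6 genes with a dimmer probe set past an unadjusted p under 0.05; points are limma estimates over 3 pairs and bars are 95% intervals. For each of the 6 genes the interval of the brightest probe set includes 0 while that of 1 dimmer probe set lies above 0.

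The other genes of the presynaptic cycle, taken from a list of 103 of which 96 were measured, had 33 higher (34.4%, against 45.7% of all genes) and 63 lower and a median log2 fold change of -0.08. Their medians by pair were 0.04, -0.22 and -0.01. An unadjusted p under 0.05 was reached by 2 as higher and by 1 as lower, against the 2.76% and 2.27% of all genes, and 0 passed an adjusted p under 0.05 by limma. The higher ones were Ppfia4, a liprin scaffold of the active zone, with 363, 402 and 427 in control and 482, 507 and 644 in crushed eyes, and Bin1, an amphiphysin of endocytosis, with 110.2, 93.8 and 102 in control and 134, 157 and 144 in crushed eyes. The lower was Unc13c, a Munc13 that primes vesicles, with 5207, 5952 and 5219 in control and 4525, 3551 and 3257 in crushed eyes. In these 3 genes the groups did not overlap, and the log2 fold changes were 0.45 for Ppfia4 (95% interval 0.09 to 0.80), 0.51 for Bin1 (95% interval 0.12 to 0.90) and -0.54 for Unc13c (95% interval -0.97 to -0.11), each with an adjusted p of 0.642 from limma. None of the 3 kept an unadjusted p under 0.05 with every pair left out in turn, since Ppfia4 lost it without pair 1 (0.46) or pair 3 (0.37), Bin1 without pair 2 (0.40) or pair 3 (0.51) and Unc13c without pair 2 (-0.44) or pair 3 (-0.47). The methods' t-test gave them an unadjusted p of 0.053, 0.061 and 0.082 in that order. Of the 96 genes, 3 lay above and 5 below without overlap between the groups, against 5.69% and 5.32% of all genes.

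By step of the cycle, 15 of 28 genes of the active zone and priming were higher on average, 0 of 4 of the NSF machinery that takes spent SNARE complexes apart, 4 of 15 other vesicle proteins, 2 of 8 transporters that load transmitter, 10 of 25 of endocytosis and 2 of 16 of the proton pump that drives loading. The medians were 0.01, -0.12, -0.08, -0.19, -0.07 and -0.12 in that order, where 45.7% of all genes were higher and their median was -0.02. In pair 2 the medians of the same lists were -0.15, -0.40, -0.19, -0.42, -0.25 and -0.26, and in pair 1 they were 0.05, 0.04, 0.06, -0.05, 0.04 and 0.03. Nsf, the ATPase of that disassembly step, read 8137, 9109.5 and 7071 in control eyes and 8268, 6387 and 7137 in crushed eyes, and Slc17a6, the glutamate transporter of RGC vesicles, read 4945, 5634 and 4994 in control and 5648, 3755 and 4648 in crushed eyes. Crushed eye 2 was the lowest of the 6 in both.

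How large a change limma could have missed is given by its intervals. Their standard errors are drawn toward a spread shared by all tested probe sets. The smallest was 0.133 among the 63 genes and 0.132 over all genes, also where a gene's own pairs stood closer together. For 60 of the 63 genes the 95% interval of the log2 fold change lay within 1 in either direction, as it did for 90.0% of all genes, and the exceptions were Cplx4, Snap29 and Syt13. For 32 of 63 it lay within 0.5 (50.8%, against 37.6% of all genes). The highest value of a gene over the 6 eyes was in the median 1.36 times its lowest (1.48 for all genes), and the ratio was above 2 for 4 of the 63, Cplx4, Snap29, Syt13 and Syt3 (6.35%, against 17.3% of all genes). A p that misses the threshold does not show that the groups were equal. With 3 pairs, limma could not tell differences inside these intervals from 0. No array read any of the 63 genes below the floor of 16, and their mean intensities ran from 44.8 to 12456 where the highest value on an array was 15864 to 19391. Of the 63 probe sets 7 carry the suffix _x_at, which marks probes that may also bind other transcripts, those of Stx1a, Rab3a, Snap47, Stx6, Stxbp3, Syt11 and Vamp3.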

How the data were processed

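The deposited values are linear array intensities, 1 per probe set and eye, which the authors made in dChip from Affymetrix Mu430 v2.0 arrays (PM/MM model, invariant set normalization). Approximately 6000 captured cells per eye had been used, with amplified RNA. Here, values were floored at an intensity of 16 before log2, and of 45037 probe sets (64 control probe sets left out) the 33169 with a mean of at least 40 entered limma 3.58.1 (R 4.3.3) with the pairs as a block, and p-values were adjusted over all of them by Benjamini-Hochberg. Intervals are 95% intervals from limma. Probe sets were named through the platform annotation, of which 34945 had 1 symbol, 932 several and 9160 none, and 1 matching probe set with several symbols was not used. A gene was represented by its brightest probe set.

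Controls were contralateral eyes and the study used a paired test. Deviations of same-numbered eyes from their group means correlated at 0.154, 0.125 and 0.297 over probe sets, so numbers were taken as pairs, although control eye 2 correlated at 0.131 with crushed eye 1. Labels do not state that numbers mark animals. Limma p-values and intervals rest on the spread between these 3 pairs, drawn toward a spread shared by all tested probe sets.

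The genes and all lists were chosen with earlier results of these data known. Genes named with values were those of conventional and ribbon synapses, any past an unadjusted p under 0.05 and the 3 largest and 3 lowest log2 fold changes, while genes without overlap between groups and dimmer probe sets were named after their values were seen. Promoters are RefSeq sequences on GRCm38.p6. Alternatives covered the block, the floor, the filter, the scaling, the prior, the methods' t-test, averaged probe sets and left-out eyes. The calculation was tested on simulated data, where most changed probe sets passed the unadjusted threshold and none the adjusted one. Precision was limited by the number of arrays, since arrays give no read depth. Some genes of these families are not reported here.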

Additional observations from a re-analysis of the deposited data

How the results depend on the processing

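An adjusted p under 0.05 was reached by 0 of the 63 genes in any setting, which says nothing about stability, since with the pairs as a block none of the 33169 probe sets passed it. Counts past an unadjusted p under 0.05 moved by a few genes, given here with the share of all genes called. Counts of dimmer probe sets come without such a share. The 5.5% higher and 2.68% lower of all dimmer probe sets hold only for the fit described first. Without the pairing (no replicate block) 2 were higher, Syt5 and Vamp5 (3.17%, against 2.38%), and 3 dimmer probe sets were. With a floor of 64, 1 was higher (Stx2; 1.59%, against 4.15%) and 2 lower (Rab3d and Sv2b; 3.17%, against 2.86%). Without the intensity filter 2 were higher (Stx2 and Syt5; 3.17%, against 4.62%) and 3 lower (Rab3d, Sv2b and Syt9; 4.76%, against 3.4%). With a trend and robust prior 1 was higher (Stx2; 1.59%, against 3.09%), and with the methods' t-test 1 higher (Syt5; 1.59%, against 2.56%) and 2 lower (Rab3d and Sv2b; 3.17%, against 2.33%). With the mean of a gene's probe sets 5 were higher (Snap91, Stx2, Stxbp5l, Syt5 and Vamp5; 7.94%, against 3.46% of all genes). Leaving out 1 pair gave 0 to 1 higher (Vamp5 without pair 3; 1.59%, against 1.19%) and 0 lower, 23 to 43 genes above 0 (where 41.0% to 57.7% of all genes were), and 4 to 6 dimmer probe sets higher and 1 to 2 lower. Scaling to a common median gave 1 dimmer probe set lower. Without the pairing and the array of crushed eye 2 or crushed eye 3, settings added after seeing the data, 3 dimmer probe sets were higher in either case, and 2 were lower without crushed eye 3. The cause of these moves was not tested. At dim signals a change is hard to detect, and 3 pairs limit the precision of every value.

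Several genes changed sign. Leaving out 1 pair at a time gave log2 fold changes of -0.12 to 0.0088 for Syt1, -0.32 to 0.12 for Syt2, -0.0408 to 0.0039 for Snap25, -0.10 to 0.01 for Vamp1, -0.15 to 0.0543 for Vamp2, -0.0116 to 0.13 for Stx1a, -0.18 to 0.0411 for Syn1, -0.0252 to 0.16 for Sv2c, -0.0202 to 0.0611 for Rab3a, -0.23 to 0.0645 for Cplx1, -0.23 to 0.0943 for Cplx2, -0.11 to 0.0856 for Syngr1, -0.26 to 0.0512 for Syngr3, -0.22 to 0.041 for Stx3, -0.45 to 0.50 for Cplx4 and -0.59 to 0.0768 for Syt13. Quantile normalization gave 0.0276 for Snap25, 0.0083 for Vamp1 and 0.0023 for Syngr1, scaling to a common median -0.0345 for Rab3a, a floor of 64 -0.014 for Sv2c and the methods' t-test a log2 ratio of means of -0.0014 for Cplx4. The mean of a gene's probe sets gave 0.0941 for Syt1, 0.10 for Snap25, 0.0764 for Vamp2, -0.013 for Stx1a, -0.0669 for Rab3a, 0.12 for Cplx2 and 0.22 for Stx3. Of the other values of named genes and probe sets, 337 kept direction and side of the threshold, 24 lost an unadjusted p under 0.05 and 18 reached it. The pairing moved no log2 fold change.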
